A study of Mus musculus with 9 samples.

Results

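Glucose and lactate transporters are described here as 9 genes, chosen by symbol: Slc2a1, Slc2a3, Slc2a6, Slc2a8, Slc16a1, Slc16a3, Bsg, Mpc1 and Mpc2. They were found by Ensembl identifier among the 34866 genes of the deposited tables, and all 9 were present. RNA was sequenced from mouse primary macrophages, phagocytes of the innate immune system, in 3 groups of 3 biological replicates. Cells of the standard oxygen group spent 7 days in standard oxygen. For acute hypoxia, cells from standard oxygen spent 3 hours in 1% oxygen, and for chronic hypoxia they spent all 7 days in 1% oxygen. The medium of all groups was alpha-MEM, to which serum had been added, and medium that L929 fibroblasts had conditioned, a source of macrophage growth factor. The strain, the tissue of origin and how many animals stand behind a library are not given in the sources used here, so p-values measure the spread between these cultures. Expression is in TPM, a length-corrected share of all transcripts, which allows genes to be compared with each other and sums to the same total in every library.

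Glucose crosses the plasma membrane through facilitative carriers of the SLC2 family, of which Slc2a1 encodes GLUT1, the main carrier of macrophages, and Slc2a3 encodes GLUT3. Slc2a6 and Slc2a8 encode GLUT6 and GLUT8, carriers found mostly on internal membranes, with GLUT6 on lysosomes. Lactate leaves or enters a cell together with a proton through monocarboxylate transporters, among them MCT1, encoded by Slc16a1, and MCT4, encoded by Slc16a3, a carrier known for lactate export from glycolytic cells. Both need the membrane glycoprotein basigin, encoded by Bsg, to reach the cell surface. Pyruvate that is not turned into lactate enters mitochondria through a carrier built of the proteins of Mpc1 and Mpc2. Slc2a1 and Slc16a3 are known as target genes of the hypoxia-inducible factors, which bind DNA at a short core written ACGTG or GCGTG.

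Upstream sequence of 4 of the genes is shown because their levels in low oxygen ran from among the highest of the 9 genes to among the lowest, so that the letters can be read beside the expression values. RefSeq promoter windows on GRCm38.p6 were matched for 7 of the 9 genes, in 8 windows. Each line holds 200 bases, from base 205 to base 6 before the RefSeq start, read 5′ to 3′ on the strand of the gene. Capitals mark ACGTG and GCGTG, or CACGT and CACGC where the core lies on the opposite strand. In Slc16a1 1 site is the palindrome CACGTG, also known as an E-box, which holds ACGTG on both strands.
Slc2a1: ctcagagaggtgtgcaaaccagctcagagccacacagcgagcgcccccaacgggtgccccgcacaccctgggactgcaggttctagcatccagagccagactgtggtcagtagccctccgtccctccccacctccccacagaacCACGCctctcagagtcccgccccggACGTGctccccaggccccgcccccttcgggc
Slc16a3: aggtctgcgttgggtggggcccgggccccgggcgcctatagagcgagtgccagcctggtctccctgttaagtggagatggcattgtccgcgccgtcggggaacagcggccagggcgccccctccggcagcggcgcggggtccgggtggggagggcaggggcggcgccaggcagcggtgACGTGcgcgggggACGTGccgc
Slc2a6: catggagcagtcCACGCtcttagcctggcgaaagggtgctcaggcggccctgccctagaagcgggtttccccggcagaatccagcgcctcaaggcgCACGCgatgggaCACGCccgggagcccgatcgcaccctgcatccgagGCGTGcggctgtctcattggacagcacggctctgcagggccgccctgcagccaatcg
Slc16a1: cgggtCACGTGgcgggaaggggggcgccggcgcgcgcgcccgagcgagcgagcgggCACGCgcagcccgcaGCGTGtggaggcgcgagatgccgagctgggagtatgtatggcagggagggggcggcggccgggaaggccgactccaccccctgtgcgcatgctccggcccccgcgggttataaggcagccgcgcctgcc

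The Slc2a1 stretch is chr4:119108540-119108739 on the plus strand, and its last 29 bases lie in annotated exon. The Slc16a3 stretch is chr11:120948862-120949061 on the plus strand, which lies inside the annotated gene with 9 bases in exon, since another transcript of the gene starts further upstream. The Slc2a6 stretch is chr2:27028004-27028203 on the minus strand, and the Slc16a1 stretch is chr3:104638459-104638658 on the plus strand, and both lie outside the annotated gene. Within 250 bases before the start, Slc2a1 held 1 ACGTG, whose bases lay 36 to 32 bases before the start, and 1 GCGTG core. Slc16a3 held ACGTG 2 times, at 27 to 23 and at 14 to 10 bases before the start. Slc2a6 held no ACGTG and 4 GCGTG cores. Slc16a1 held 2 ACGTG cores, both in its palindrome, and 2 GCGTG cores. Slc2a8 and Mpc2 held 1 GCGTG each, and the 2 windows of Mpc1 held 1 and 0. Of all 32851 RefSeq windows of this length, 16.6% held ACGTG, 28.2% held GCGTG, 38.6% held either and 6.0% held CACGTG. Such a match describes letters and is not evidence of binding.

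The libraries need a description before their values. The sample descriptions carry 3 sets of digits that are shared across the groups, called here codes X, Y and Z, whose meaning is not stated. Each group has 1 library of each code, and values below are given in the order X, Y, Z. Libraries of 1 code deviated from their group means together, with a correlation of 0.38 to 0.63 over 11065 genes in each of 9 pairs. Pairs of different codes had -0.53 to 0.32. The limma fits were therefore run both without a block and with a block for the code. Ratios and sums of genes were compared without pairing, with the differences within codes given beside some of them. The code Z libraries stood apart: C1qa and Mertk, both macrophage genes, were at 0.910 to 3.41 TPM and 2.21 to 3.37 TPM in code Z, against at least 65.3 TPM and 21.8 TPM in the others. The 10 macrophage markers together reached 56882 to 75091 TPM in every library, a sum that was nearly all Lyz2, at 52793 to 70403 TPM. Levels of other markers differed in both directions, which was not tested: from standard oxygen to chronic hypoxia the means went from 469.7 to 699 TPM for Csf1r, from 535 to 759.9 TPM for Itgam and from 46.7 to 243 TPM for C1qa, and from 1069.7 to 758 TPM for Cd14 and from 542 to 413 TPM for Adgre1. Markers of lymphocytes, dendritic cells, erythroid cells and fibroblasts summed to at most 2.09 TPM. Of 7 granulocyte genes, S100a8, which monocytes and macrophages can also express, held nearly all of the sum, which ran from 898 to 1595 TPM in standard oxygen, from 941 to 1908 TPM after acute and from 260.0 to 585 TPM after chronic hypoxia. S100a9 was near 0 throughout, with a mean of 0.0257 TPM over the 9 libraries, and was listed at 0 in both hypoxia groups. Whether code, macrophage markers or granulocyte transcripts had a part in the differences below was not tested beyond the fits with a block and without code Z. In bulk RNA, fewer cells of a type and less RNA per cell cannot be told apart.

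Averaged over the 9 libraries, Bsg had the highest level at 421 TPM, followed by Slc16a3 at 343 TPM, Mpc1 at 189 TPM, Slc2a1 at 187 TPM and Mpc2 at 103 TPM. Slc2a6 averaged 46.7 TPM, Slc2a8 15.6 TPM, Slc16a1 6.55 TPM and Slc2a3 0.280 TPM. The macrophages thus carried transcripts of 1 abundant surface glucose carrier and 1 abundant lactate carrier, with GLUT3 and MCT1 far lower. Slc2a3 lay below the filter of a mean of 1 TPM and was not tested, and the other 8 genes were tested in each of the 3 comparisons. The comparisons of acute and of chronic hypoxia with standard oxygen share the standard oxygen libraries.

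**Figure D1:**
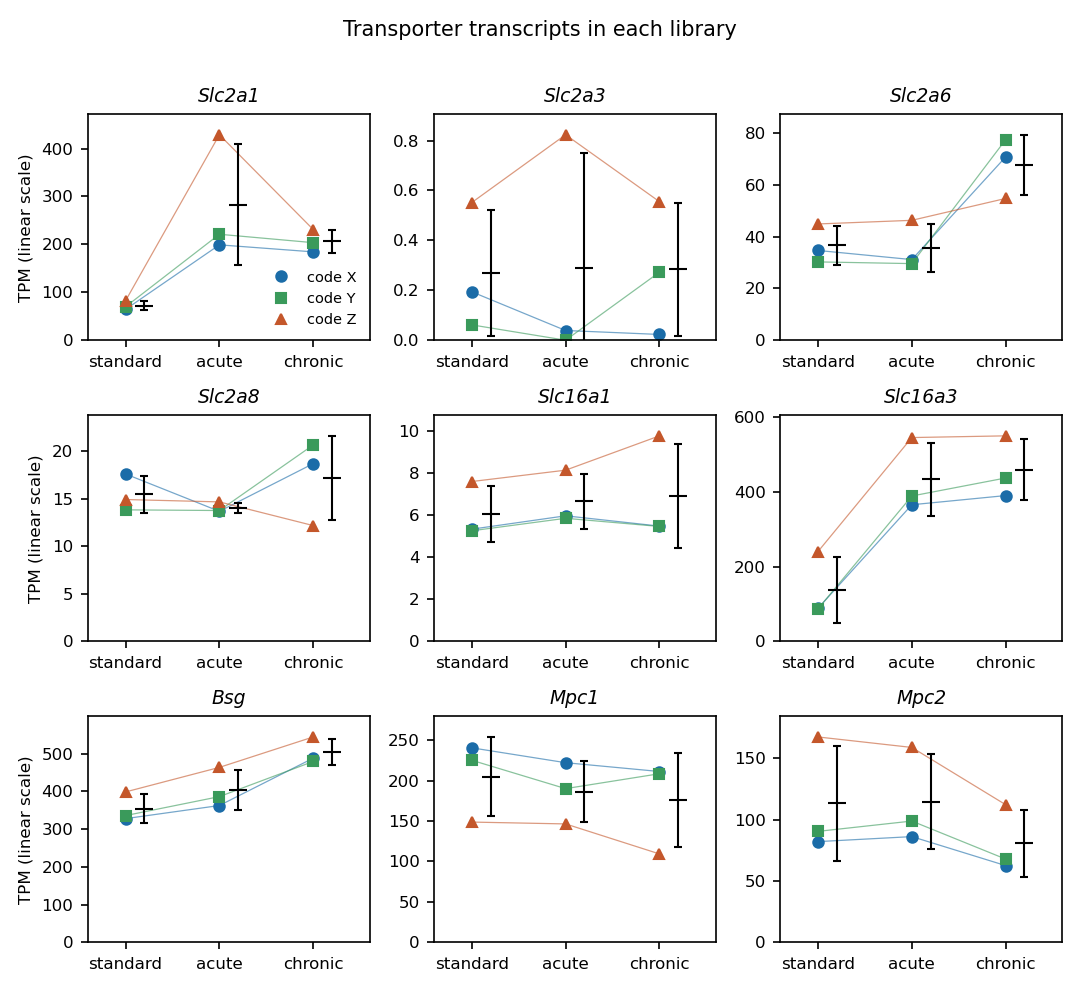
Level of each of the 9 genes in every library, in TPM on linear axes that start at 0, by oxygen group. Points are libraries marked by code and joined by code, and the horizontal and vertical bars show mean and SD over 3 libraries (a bar reaching below 0 is cut at the axis). Slc2a1 and Slc16a3 were higher in all 6 hypoxia libraries than in standard oxygen, Slc2a6 was higher in the 3 chronic libraries than in the 6 others, a difference that did not pass without or with the code block in the fits of 6 libraries, and Mpc1 and Mpc2 separated by code Z.

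Slc2a1, which encodes the glucose carrier GLUT1, stood at 64.3, 69.7 and 82.2 TPM in standard oxygen. In acute hypoxia it stood at 199, 221 and 429 TPM, and in chronic hypoxia at 184, 204 and 231 TPM. Every hypoxia library was above every standard oxygen library, and the acute library of code Z was far above the other two of its group. Slc2a1 rose in chronic hypoxia, by 1.51 (log2 of TPM + 1, SE 0.13, 95% interval 1.18 to 1.83, limma adjusted p = 0.0077), from a mean of 72.1 ± 9.17 to 206 ± 23.4 TPM (SD, n = 3). In acute hypoxia, at 283 ± 127 TPM (SD, n = 3), its difference of 1.88 (SE 0.29, 95% interval 1.18 to 2.58) did not pass, with a limma adjusted p of 0.125, and passed with the code as a block, with an adjusted p of 0.0299. With all 9 samples in 1 fit the acute difference also passed (limma adjusted p = 0.0349). Without the code Z libraries the acute difference was 1.63, with a limma adjusted p of 0.0055. The call in chronic hypoxia was lost when 1 library was left out: without standard oxygen replicate 1 (code X) the limma adjusted p was 0.0614, without standard oxygen replicate 3 (code Y) 0.0753 and without chronic hypoxia replicate 2 (code Y) 0.0680, at differences of 1.43, 1.49 and 1.51. Calls over all genes fell from 298 to 18, 14 and 1 in these fits.

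Slc2a1 was lower in chronic than in acute hypoxia in each of the 3 codes, with log2 differences of -0.11, -0.12 and -0.89 in codes X, Y and Z, and the difference of -0.37 between the groups had a 95% interval of -1.07 to 0.32 (limma adjusted p = 0.508). The 3-hour and 7-day levels overlapped and could not be ordered.

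Slc2a3 was between 0 and 0.823 TPM in the 9 libraries and was listed at 0 in the acute library of code Y. Its highest value in each group was in code Z, at 0.552, 0.823 and 0.555 TPM in standard oxygen, acute and chronic hypoxia. At these levels no difference between the groups can be read.

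Slc2a6, which encodes the lysosomal carrier GLUT6, took a course unlike that of Slc2a1. It stood at 34.7, 30.3 and 44.9 TPM in standard oxygen, at 31.2, 29.6 and 46.4 TPM in acute hypoxia and at 70.9, 77.5 and 54.8 TPM in chronic hypoxia. Acute and standard libraries overlapped throughout, and all 3 chronic libraries lay above all 6 others, with the smallest step in code Z. The acute difference was -0.05 (95% interval -0.56 to 0.47), the difference between chronic hypoxia and standard oxygen was 0.87 (SE 0.19, limma adjusted p = 0.0685), and that between chronic and acute hypoxia was 0.92 (SE 0.21, limma adjusted p = 0.0916). With the code as a block the adjusted p-values were 0.0508 and 0.0505, just above the threshold. With all 9 samples in 1 fit the difference from standard oxygen passed (limma adjusted p = 0.0485) and that from acute hypoxia did not. With all 9 samples and the code block both passed (adjusted p = 0.0243 and 0.0236). With the code block and median-of-ratios rescaling together they were 0.69 and 0.77, and neither passed (adjusted p = 0.0978 and 0.0949). Without the code Z libraries the differences were 1.17 and 1.26, with limma adjusted p of 0.0039 and 0.0040.

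Slc2a8, which encodes the intracellular carrier GLUT8, stood at 17.6, 13.8 and 14.9 TPM in standard oxygen. It stood at 13.7, 13.8 and 14.7 TPM in acute hypoxia and at 18.7, 20.7 and 12.2 TPM in chronic hypoxia. The groups overlapped in every comparison, and in chronic hypoxia codes X and Y were higher and code Z lower. Between chronic and acute hypoxia it differed by 0.24 (95% interval -0.23 to 0.71, limma adjusted p = 0.523, with the code block 0.368), and without the code Z libraries by 0.49, which passed (adjusted p = 0.0337, with the code block 0.0272). Its difference between chronic hypoxia and standard oxygen was 0.12 (95% interval -0.38 to 0.62), which turned to -0.05 with median-of-ratios rescaling and to -0.07 with quantile normalization.

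The 4 SLC2 genes together summed to 124 ± 15.8 TPM in standard oxygen, to 333 ± 137 TPM after acute and to 291 ± 15.3 TPM after chronic hypoxia (SD, n = 3). Slc2a1 gave 58.0% ± 3.09 of that sum in standard oxygen, 84.2% ± 2.95 after acute and 70.7% ± 5.79 after chronic hypoxia (SD, n = 3). Slc2a6 gave 29.3% ± 2.49, 11.1% ± 1.67 and 23.3% ± 4.28 (SD, n = 3), so its share was lowest in every acute library. Both hypoxia groups had sums above every standard oxygen library, with an exact two-sided permutation p of 0.1, the smallest that 3 against 3 allows, and an adjusted p of 0.217 over 13 such tests.

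Among lactate carriers, Slc16a3, which encodes MCT4, stood at 88.4, 86.7 and 239.9 TPM in standard oxygen. It stood at 365, 389 and 545 TPM in acute hypoxia and at 389.8, 437 and 549 TPM in chronic hypoxia. All hypoxia libraries lay above all standard oxygen libraries, and code Z was highest in each group, most clearly in standard oxygen. The difference between acute hypoxia and standard oxygen was 1.79 (SE 0.41, 95% interval 0.81 to 2.77, limma adjusted p = 0.273), which passed with the code as a block, with an adjusted p of 0.0489, and did not with that block and median-of-ratios rescaling together (adjusted p = 0.0642). The difference between chronic hypoxia and standard oxygen was 1.88 (SE 0.40, 95% interval 0.92 to 2.84, limma adjusted p = 0.0651), which passed with the code as a block, with an adjusted p of 0.0149. Without the code Z libraries these differences were 2.09 and 2.22, with limma adjusted p of 0.0014 and 0.0013, and leaving out standard oxygen replicate 2 (code Z) alone gave 2.27 and 2.36, with adjusted p of 0.0351 and 0.0059. Within codes X, Y and Z the acute difference was 2.03, 2.15 and 1.18 and the chronic difference 2.13, 2.32 and 1.19.

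Between chronic and acute hypoxia Slc16a3 differed by 0.09, with a 95% interval of -0.39 to 0.57 (limma adjusted p = 0.832) and a direction that flipped to -0.07 with median-of-ratios rescaling and to -0.01 with quantile normalization.

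Slc16a1, which encodes the widely expressed lactate carrier MCT1, stood at 5.34, 5.27 and 7.61 TPM in standard oxygen. It stood at 5.98, 5.86 and 8.16 TPM in acute hypoxia and at 5.49, 5.47 and 9.79 TPM in chronic hypoxia. Code Z was the highest library of each group, and the groups overlapped. Its difference was 0.12 (95% interval -0.34 to 0.58) in acute and 0.13 (95% interval -0.47 to 0.74) in chronic hypoxia against standard oxygen, and the chronic one turned to -0.02 with median-of-ratios rescaling and to -0.08 with quantile normalization. A change of the size seen in Slc16a3 lies outside both intervals.

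The proportion of the 2 lactate carriers was compared within each library. There were 16.5, 16.5 and 31.5 Slc16a3 transcripts per Slc16a1 transcript in standard oxygen, 61.1, 66.3 and 66.8 after acute and 71.0, 79.8 and 56.1 after chronic hypoxia. The log2 ratio was higher by 1.66 in acute and by 1.74 in chronic hypoxia than in standard oxygen, without overlap (exact two-sided permutation p = 0.1 each, adjusted p = 0.217). It differed by 0.08 between chronic and acute hypoxia (exact permutation p = 0.7).

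Bsg, which encodes the chaperone of both carriers, stood at 328, 336 and 399 TPM in standard oxygen. It stood at 363, 386 and 464 TPM in acute hypoxia and at 488, 479 and 544 TPM in chronic hypoxia. Chronic libraries lay above all others, acute and standard libraries overlapped, and in each code the acute library was above the standard one. The difference between chronic hypoxia and standard oxygen was 0.51 (SE 0.12, 95% interval 0.23 to 0.79, limma adjusted p = 0.0758) and passed with the code as a block, with an adjusted p of 0.0151. The difference between chronic and acute hypoxia was 0.32 (SE 0.13, limma adjusted p = 0.220) and passed with the code as a block, with an adjusted p of 0.0433, but not with that block and rescaling together, at 0.17 (adjusted p = 0.211). The difference between acute hypoxia and standard oxygen was 0.19 (95% interval -0.13 to 0.50, limma adjusted p = 0.942), with an adjusted p of 0.235 with the block.

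Bsg was also set against the carriers, whose sum was mostly Slc16a3. Per transcript of Slc16a1 and Slc16a3 together there were 3.50, 3.66 and 1.61 Bsg transcripts in standard oxygen, 0.977, 0.979 and 0.839 after acute and 1.24, 1.08 and 0.973 after chronic hypoxia. The log2 ratio differed from standard oxygen by -1.56 in acute and by -1.33 in chronic hypoxia, and was lower in 3 of 3 codes (exact two-sided permutation p = 0.1 each, adjusted p = 0.217). Basigin also chaperones other membrane proteins, so these ratios compare transcripts and not complexes.

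**Figure D2:**
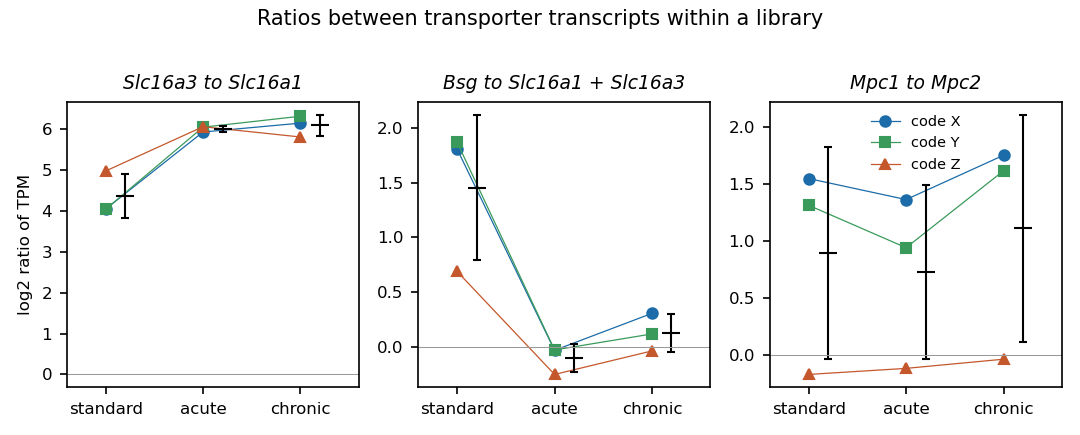
Log2 ratios of TPM within a library by oxygen group, for Slc16a3 to Slc16a1, Bsg to the sum of Slc16a1 and Slc16a3, and Mpc1 to Mpc2. Points are libraries marked and joined by code, and bars show mean and SD over 3 libraries. The first ratio was higher and the second lower in all 6 hypoxia libraries than in standard oxygen, and the third was set apart by code Z in every group.

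Emb encodes embigin, the other ancillary protein of monocarboxylate carriers, and was the 1 tested gene of 6 in the list of sodium-coupled carriers, ancillary protein and lactate receptor. It stood at 131, 130.9 and 142 TPM in standard oxygen, at 141, 133 and 139.9 TPM in acute hypoxia and at 357, 339 and 291 TPM in chronic hypoxia. Acute and standard libraries overlapped and the chronic libraries were far above both. Of all genes, 24.2% were higher without overlap in chronic hypoxia than in standard oxygen, and 22.3% than in acute hypoxia. Emb rose in chronic hypoxia by 1.28 over standard oxygen (SE 0.11, limma adjusted p = 0.0077) and by 1.24 over acute hypoxia (SE 0.11, limma adjusted p = 0.0195). The first call was lost without standard oxygen replicate 1 or 3 or chronic hypoxia replicate 2 (adjusted p = 0.0650, 0.0753 and 0.0680), and the second without acute hypoxia replicate 1 or 2 or chronic hypoxia replicate 1 or 2 (adjusted p from 0.132 to 0.161), at differences of 1.18 to 1.26.

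The other 5 genes of that list, the sodium-coupled glucose carriers Slc5a1 and Slc5a2, the sodium-coupled monocarboxylate carriers Slc5a8 and Slc5a12 and the lactate receptor Hcar1, were at 0.113 TPM or less in every library.

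For pyruvate entry into mitochondria, Mpc1 stood at 240.4, 225 and 149 TPM in standard oxygen, at 222, 190.0 and 146 TPM in acute hypoxia and at 211, 208 and 109 TPM in chronic hypoxia. Code Z was the lowest library in each group. Its differences were -0.13 (95% interval -0.68 to 0.42) in acute and -0.25 (95% interval -0.98 to 0.49) in chronic hypoxia against standard oxygen, lower in 3 of 3 codes in both, and neither passed with or without the block (adjusted p = 0.111 for chronic hypoxia with the code block). With the code block and median-of-ratios rescaling together the chronic difference was -0.43 and passed (adjusted p = 0.0435). In the fit without block and rescaling, leaving out chronic hypoxia replicate 3 (code Z) turned the chronic difference from -0.25 to 0.07. Leaving out 1 library was not tried with the block and rescaling. Of the 75-base stretches of the longest Mpc1 transcript, 21.08% also occur in the pseudogene Mpc1-ps, so reads of the pair may have been split. Mpc1-ps was listed at 0 in standard oxygen and acute hypoxia and at up to 2.27 TPM in chronic hypoxia.

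Mpc2, the partner subunit, stood at 82.1, 90.4 and 167 TPM in standard oxygen. It stood at 86.1, 98.8 and 159 TPM in acute hypoxia and at 62.6, 67.9 and 112 TPM in chronic hypoxia. Code Z was the highest library in each group, opposite to Mpc1, and within every code the chronic library was the lowest. The difference between chronic hypoxia and standard oxygen was -0.46 (SE 0.33, limma adjusted p = 0.455), or -0.39, -0.41 and -0.57 within the codes, and passed with the code as a block, with an adjusted p of 0.0226. The difference between chronic and acute hypoxia was -0.50 (SE 0.30, limma adjusted p = 0.395) and passed with the code as a block, with an adjusted p of 0.0151. In the fit without a block, leaving out 1 library moved the first from -0.71 (without chronic hypoxia replicate 3) to -0.14 (without standard oxygen replicate 2) and the second from -0.75 (without chronic hypoxia replicate 3) to -0.24 (without acute hypoxia replicate 3), all 3 of code Z. Acute hypoxia and standard oxygen differed by 0.04 (95% interval -0.76 to 0.84), and this direction turned to -0.01 with quantile normalization.

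The number of Mpc1 transcripts per Mpc2 transcript was 2.93, 2.49 and 0.889 in standard oxygen, 2.58, 1.92 and 0.922 after acute and 3.38, 3.07 and 0.975 after chronic hypoxia. Code Z held fewer Mpc1 than Mpc2 transcripts in every group and the other codes held more. The log2 ratio was highest in chronic hypoxia within each code, and against standard oxygen it differed by 0.21 (exact two-sided permutation p = 0.5).

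**Figure D3:**
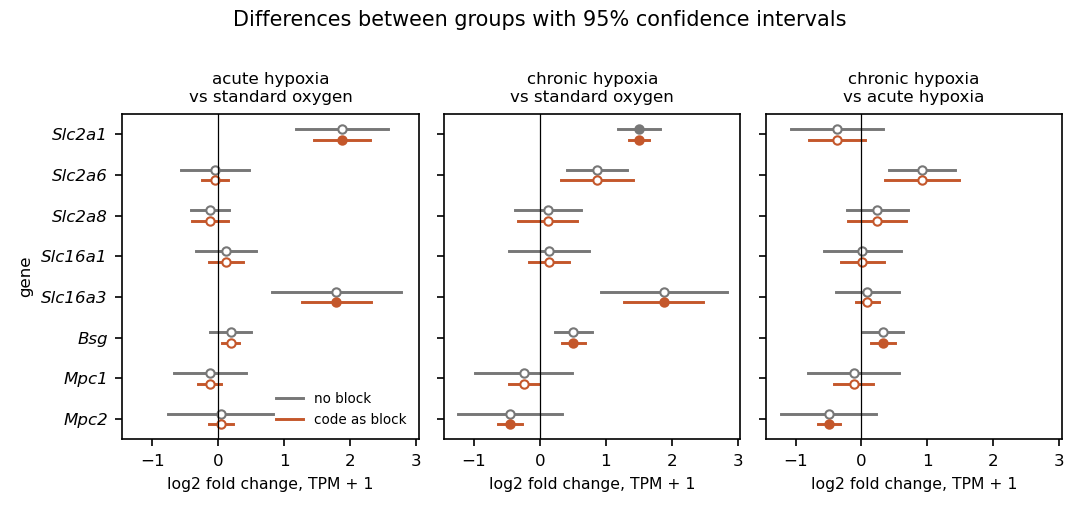
Log2 fold change of TPM + 1 with its 95% confidence interval for the 8 tested genes in the 3 comparisons, without a block (grey) and with the code as a block (orange). Filled points passed an adjusted p of 0.05 in the limma fit over all genes. Slc2a1 in chronic hypoxia was the 1 filled point without a block, and the blocked fit added Slc2a1 and Slc16a3 in acute hypoxia and Slc16a3, Bsg and Mpc2 in chronic hypoxia against standard oxygen, and Bsg and Mpc2 between chronic and acute hypoxia.

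Counted over the 8 tested genes, 0 were called in acute hypoxia against standard oxygen without a block, where 0.0273% of all 10987 tested genes were called, and an unadjusted limma p under 0.05 was met by 2 genes. Adding the code block gave 2 calls, both higher, where 0.71% of all genes were called and 0.655% were called higher. In chronic hypoxia against standard oxygen 1 was called, higher, where 2.69% of all 11067 tested genes were called and 2.1% were called higher. Adding the code block gave 4 calls (3 higher and 1 lower), where 18.4% of all genes were called, 15.1% higher and 3.3% lower. In chronic against acute hypoxia 0 were called, against 0.695% of all 11087 tested genes, and 2 had an unadjusted limma p under 0.05. Adding the code block gave 2 calls (1 higher and 1 lower), where 15.5% of all genes were called, 12.1% higher and 3.42% lower. Groups did not overlap for Slc2a1 and Slc16a3 in acute hypoxia, where 7.63% of all genes were higher without overlap, and for Slc2a1, Slc2a6, Slc16a3 and Bsg in chronic hypoxia, against 24.2%. They did not overlap for Slc2a6 and Bsg between chronic and acute hypoxia, against 22.3%, and none of the 8 genes was lower without overlap in any comparison, against 4.85%, 5.39% and 5.5%. Title replicate numbers, used as a block in place of the codes, gave 0, 0 and 2 calls, where 0%, 0.00904% and 15.5% of all genes were called. Between chronic and acute hypoxia title numbers and codes pair the same libraries, so the last fit repeats the code block and adds nothing to it. Replicates 2 and 3 are of codes Z and Y in standard oxygen, and of codes Y and Z in both hypoxia groups.

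The median difference of the 8 genes was 0.08 in acute hypoxia, 0.32 in chronic hypoxia and 0.05 between chronic and acute hypoxia, beside 0.01, 0.16 and 0.14 over all genes tested. Median-of-ratios rescaling removed the offset of all genes in the chronic comparisons. The differences against standard oxygen then were 1.33 for Slc2a1 (limma adjusted p = 0.0051), 1.70 for Slc16a3, 0.69 for Slc2a6, 0.33 for Bsg, -0.43 for Mpc1 and -0.64 for Mpc2. With that rescaling and the code block together, Slc2a1, Slc16a3, Bsg, Mpc1 and Mpc2 were called (limma adjusted p = 0.0050, 0.0211, 0.0411, 0.0435 and 0.0149). Over all genes 1270 were called in that fit. Of all genes called in chronic hypoxia against standard oxygen, 77.9% were higher with the deposited values, 49.1% after median-of-ratios rescaling and 52.3% after quantile normalization. Between chronic and acute hypoxia these shares were 79.2%, 40.7% and 45.3%, and in acute hypoxia 66.7%, 90.5% and 91.3%.

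Other members of the 2 carrier families were mostly near 0. Of 8 other SLC2 genes only Slc2a9, a urate carrier, passed the filter, at 49.6, 47.5 and 45.3 TPM in standard oxygen, 47.2, 47.3 and 39.9 TPM after acute hypoxia and 58.7, 63.1 and 48.2 TPM in chronic hypoxia. It was thus of the order of Slc2a6 and was highest in chronic hypoxia within each code. Its difference between chronic and acute hypoxia was 0.33 (limma adjusted p = 0.237) and passed with the code as a block, with an adjusted p of 0.0432, but not with that block and rescaling together, at 0.17 (adjusted p = 0.177). The insulin-responsive carrier Slc2a4 reached at most 0.542 TPM and the fructose carrier Slc2a5 at most 0.178 TPM.

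Of 12 other SLC16 genes 4 were tested, and 0 were called without a block in any comparison, where 0.0273% to 2.69% of all genes were called. Slc16a10, an aromatic amino acid carrier, was the most abundant at 57.6 ± 4.51, 51.4 ± 2.26 and 55.4 ± 10.6 TPM in standard oxygen, acute and chronic hypoxia (SD, n = 3). Slc16a13 was lower in chronic than in acute hypoxia without overlap, as 5.5% of all genes were, at 3.54, 4.08 and 3.70 TPM against 5.85, 5.63 and 6.77 TPM. The difference of -0.57 (limma adjusted p = 0.105) passed with the code as a block, with an adjusted p just under the threshold at 0.04996. Slc16a7, which encodes the pyruvate and lactate carrier MCT2, split by code and not by oxygen: it was at 0.0163 to 0.0680 TPM in the 3 code Z libraries and at 3.28 to 9.27 TPM in the 6 others.

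Of 11 genes for trafficking and internalisation of glucose carriers, all 11 were tested. Without a block 0 were called in acute hypoxia, where 0.0273% of all genes were called. In chronic hypoxia against standard oxygen 1 was called, higher, where 2.1% of all genes were called higher. That gene was Txnip, whose arrestin-like protein promotes internalisation of GLUT1, at 26.6, 24.6 and 91.2 TPM in standard oxygen, 184, 173 and 102 TPM after acute hypoxia and 343, 343 and 248 TPM in chronic hypoxia. The groups were ordered in each code, but the acute step was large in codes X and Y, at 2.74 and 2.76 on the log2 scale, and 0.15 in code Z. Txnip rose in chronic hypoxia by 2.94 (SE 0.49, limma adjusted p = 0.0391), a call lost without any 1 of standard oxygen replicates 1 and 3 and chronic hypoxia replicates 1 and 2 (adjusted p from 0.131 to 0.172), with no filter on low values (adjusted p = 0.0897) and without the trend (adjusted p = 0.0537). Its acute difference of 1.89 did not pass without a block (limma adjusted p = 0.411) or with it (adjusted p = 0.258), and passed without the code Z libraries at 2.75 (adjusted p = 0.0014). Between chronic and acute hypoxia it differed by 1.05 (limma adjusted p = 0.103), with an adjusted p of 0.0097 with the code as a block.

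With the code as a block, 15.1% of all genes were called higher in chronic hypoxia against standard oxygen and 3.3% lower. Of the 11 trafficking genes, 2 were called higher and 1 lower. Beside Txnip these were its relative Arrdc4, at 16.2 ± 3.32 and 28.2 ± 2.16 TPM (SD, n = 3), a difference of 0.78 (limma adjusted p = 0.0671, with the block 0.0186), and Snx27, at a difference of -0.32 (limma adjusted p = 0.216, with the block 0.0413). Snx27 encodes a sorting nexin that returns GLUT1 from endosomes to the surface with the retromer. The retromer genes Vps26a, Vps26b, Vps29 and Vps35 differed by -0.14, 0.16, 0.13 and 0.08, beside the offset of 0.16 over all genes, and were not called with or without the block. Vps26a was lower in 3 of 3 codes and without overlap, as 5.39% of all genes were, at 83.4, 82.9 and 77.6 TPM against 89.7, 94.5 and 84.1 TPM. The other retromer genes were higher in 3 of 3 codes.

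**Figure D4:**
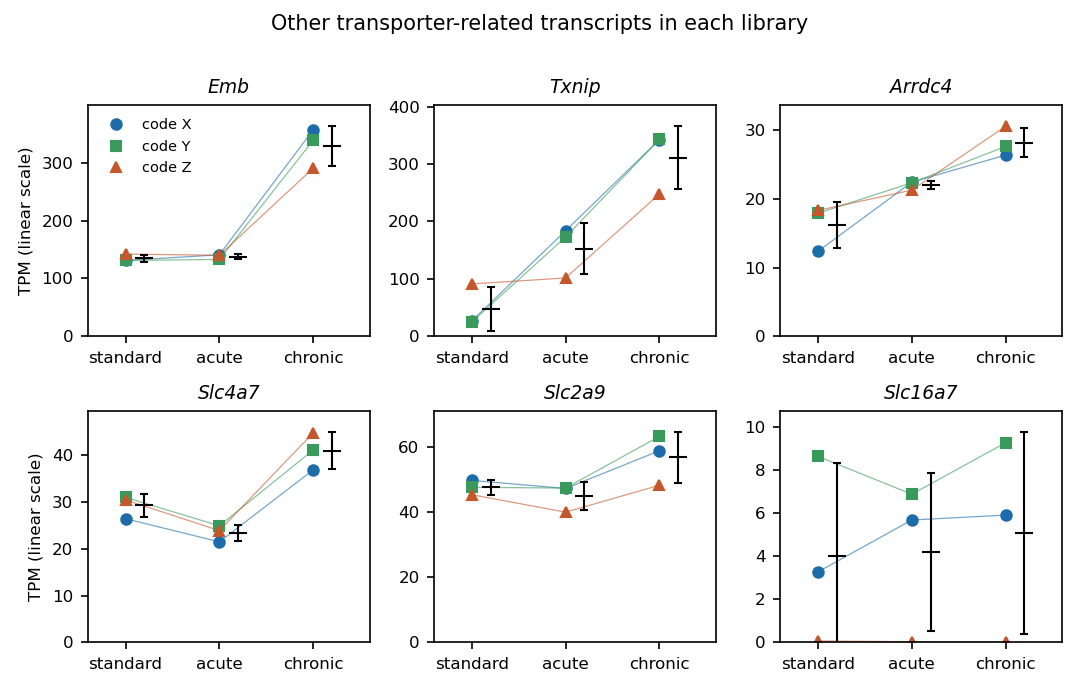
Levels in TPM, on linear axes that start at 0, of 6 genes named beside the carriers: Emb, Txnip, Arrdc4, Slc4a7, Slc2a9 and Slc16a7, by oxygen group. Points are libraries marked and joined by code, and bars show mean and SD over 3 libraries (a bar reaching below 0 is cut at the axis). Emb was higher in the 3 chronic libraries than in the 6 others, Txnip stepped up in each group, and Slc16a7 was near 0 in every code Z library.

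Proton and bicarbonate transport was covered by 7 genes, 3 of which were tested. Slc4a7, a sodium bicarbonate cotransporter, stood at 26.5, 31.0 and 30.5 TPM in standard oxygen, at 21.5, 24.9 and 23.9 TPM in acute hypoxia and at 36.9, 41.2 and 44.8 TPM in chronic hypoxia. It was lowest in acute and highest in chronic hypoxia, with no overlap between any 2 groups. Of all genes, 4.85% were lower without overlap in acute hypoxia than in standard oxygen. In chronic hypoxia 24.2% were higher without overlap than in standard oxygen, and 22.3% than in acute hypoxia. Slc4a7 rose from acute to chronic hypoxia by 0.78 (SE 0.11, limma adjusted p = 0.0493). That call was lost with either rescaling (adjusted p = 0.0523 and 0.0549), with a pseudocount of 5 (0.0515), with no filter (0.0924), without the trend (0.0636) and without any 1 of acute hypoxia replicates 1, 2 and 3 and chronic hypoxia replicates 1 and 2 (adjusted p from 0.0643 to 0.238), and held with the code as a block (adjusted p = 0.0120). Against standard oxygen it differed by -0.31 in acute hypoxia (limma adjusted p = 0.586) and by 0.47 in chronic hypoxia (limma adjusted p = 0.0928, with the code block 0.0219, with that block and rescaling 0.0712). Car9, a carbonic anhydrase known as a hypoxia marker in tumour cells, was at 13.5, 10.8 and 13.2 TPM on average in standard oxygen, acute and chronic hypoxia and was not called.

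Of 11 enzymes that use the transported glucose, lactate or pyruvate 9 were tested. Without a block 0 were called in acute hypoxia, 1 in chronic hypoxia against standard oxygen and 1 between chronic and acute hypoxia, each of them Pdk1, and all higher. In that order, 0.0273%, 2.69% and 0.695% of all genes were called. Pdk1 encodes a kinase that inhibits pyruvate dehydrogenase, the step after the mitochondrial pyruvate carrier, and its differences were 1.47 (limma adjusted p = 0.0048) and 0.68 (limma adjusted p = 0.0448). The first call was lost without chronic hypoxia replicate 2 (adjusted p = 0.0623), and the second without any 1 of acute hypoxia replicates 1, 2 and 3 and chronic hypoxia replicates 1 and 2 (adjusted p from 0.0567 to 0.236). The second was also lost with median-of-ratios rescaling (adjusted p = 0.0864), quantile normalization (0.0549), no filter (0.0562) and no trend (0.0568). It held with the code block, and with that block and median-of-ratios rescaling together, at 0.53 (adjusted p = 0.0208). With the code as a block, 3 were called higher in acute hypoxia (Hk2, Ldha and Pdk1), where 0.655% of all genes were called higher. In chronic hypoxia against standard oxygen 4 were called higher (Hk1, Hk2, Ldha and Pdk1), where 15.1% of all genes were called higher. Between chronic and acute hypoxia 1 was called higher (Pdk1) and 1 lower (Hk2), where 12.1% of all genes were called higher and 3.42% lower. Ldha differed by 0.94 in acute and 1.24 in chronic hypoxia. Hk2, a hexokinase that traps imported glucose, differed by 1.33 in acute and 0.61 in chronic hypoxia, and Hk1, its relative, by 0.45 and 0.38. With that block and rescaling together, Hk2 in acute hypoxia (adjusted p = 0.0654) and Hk1 in chronic hypoxia (0.112) were not called. Between chronic and acute hypoxia Hk2 differed by -0.72, in 3 of 3 codes lower as Slc2a1 was (limma adjusted p = 0.210, with the code block 0.0297), and leaving out 1 library moved this from -0.93 (without acute hypoxia replicate 1) to -0.42 (without acute hypoxia replicate 3). Pdha1, Pdhb and Dlat, subunits of pyruvate dehydrogenase, differed by at most 0.18 in either direction in all 3 comparisons.

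The genes whose pattern over the 9 libraries was most like each carrier's were taken from 7100 genes with a mean of at least 10 TPM, by Pearson correlation of log2(TPM + 1). The points share libraries and codes, so these values are descriptions. Slc16a3 was most like Ak4, an adenylate kinase, at 0.999, and Gpr35, a receptor, at 0.998. Ak4 had means of 4.44, 35.6 and 40.9 TPM in standard oxygen, acute and chronic hypoxia. Slc2a1 was most like Eif4ebp1, a repressor of translation, at 0.986, and Ccng2, a cyclin, at 0.977. Slc2a6 was most like Fcgr2b, the inhibitory Fc receptor, at 0.983, with means of 46.7, 57.3 and 245.3 TPM, and Cdkn2aipnl at 0.976. Bsg was most like Racgap1 and Kif23, 2 genes of cell division, at 0.989 and 0.988, which had means of 29.0 and 22.8 TPM in chronic hypoxia against 9.07 and 5.72 TPM in standard oxygen. Mpc2 was most like Mgst2 and Ascc2, at 0.991 and 0.983, and Mpc1 like Rgs10 and Lipa, at 0.976 and 0.975. Slc16a1 was most like Eif5a and Hsp90ab1, both at 0.985, and Slc2a8 like Cd81 and Pigs, at 0.94 and 0.90.

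Genome positions are those of GENCODE M21 on GRCm38, and all 9 genes are protein-coding. The annotated genes span chr4:119108711-119137983 on the plus strand for Slc2a1, chr6:122727809-122801640 on the minus strand for Slc2a3, chr2:27021363-27027998 on the minus strand for Slc2a6 and chr2:32972990-32982083 on the minus strand for Slc2a8. They span chr3:104638668-104658462 for Slc16a1, chr11:120948480-120960868 for Slc16a3, chr10:79704491-79711969 for Bsg, chr17:8282904-8297661 for Mpc1 and chr1:165460637-165481214 for Mpc2, all on the plus strand. No exon of another listed gene overlapped theirs, and apart from Mpc1 at most 0.61% of the 75-base stretches of a longest transcript, in Slc2a3, occurred elsewhere.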

How the data were processed

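Sequencing libraries of 9 macrophage cultures were prepared with Illumina TruSeq mRNA chemistry and read as 75-base pairs, per the labels' protocols. FastQC, STAR, featureCounts and GRCm38 are named in the submitters' processing notes, without versions. The authors deposited TPM per gene in 3 tables, 1 for each pair of groups. Values of all 9 samples were identical between the 2 tables that list them. Depth is unknown, so no counting error is given. The 9 genes and all gene lists were chosen with earlier results of these data known. Each comparison was fitted on its 6 libraries with limma 3.58.1 in R 4.3.3 (eBayes with trend, two-sided) on log2(TPM + 1), over genes with a mean of at least 1 TPM, with Benjamini-Hochberg adjustment over all genes and a threshold of 0.05. Fold changes on this scale understate changes of low genes. Fits with the title replicate number or the description code as a block were alternatives. Libraries of 1 code deviated together (mean correlation 0.48 over 9 pairs), so the code was used to pair the samples. Libraries of different codes correlated at -0.53 to 0.32. The highest of these were standard oxygen replicate 1 (code X) with chronic replicate 2 and acute replicate 2 (both code Y), at 0.32 and 0.31. Libraries of 1 title number did not deviate together in every pair (-0.52 to 0.63, mean 0.094). Ratios within a library were compared by exact permutation. Named genes were all 9, the called genes of each list (else that with the largest difference), and the 2 most correlated genes of each. A few further list genes (the retromer genes, single macrophage markers, Car9, Pdha1, Pdhb, Dlat, Slc2a4, Slc2a5 and Slc16a7) were named after their values were seen. The fit was also run on simulated data with normally distributed noise, whose outcome is not given here and is not used as support. Annotation was GENCODE M21, and promoter windows came from RefSeq on GRCm38.p6.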

Additional observations from a re-analysis of the deposited data

How the results depend on the processing

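Of the named genes' differences under all alternatives, 795 kept their direction and side of the threshold, 127 passed it newly, 40 no longer passed it and 36 reversed; of the ratios, 107 held and 10 reversed. The counts of changed carriers were 0, 1 and 0 in acute hypoxia against standard oxygen, chronic hypoxia against standard oxygen and chronic against acute hypoxia. In that order, they were 2, 4 and 2 with the code as a replicate block, 0, 0 and 2 with the title number as a replicate block, 1, 4 and 0 with all 9 samples in 1 fit, 1, 5 and 1 with the code block and median-of-ratios rescaling, and 2, 5 and 3 with the code block and all 9 samples. Alternatives chosen after seeing the data gave 2, 5 and 4 without the code Z libraries, with or without the code block. Leaving out 1 library gave 0 to 1, 0 to 4 and 0 to 0: 1 without standard oxygen replicate 2 in acute hypoxia, and in chronic hypoxia 4 without that library, 2 without chronic hypoxia replicate 3 and 0 without standard oxygen replicate 1 or 3 or chronic hypoxia replicate 2. The title block lost the calls of Slc2a1, Emb, Txnip and Pdk1 in chronic hypoxia against standard oxygen (adjusted p from 0.0882 to 0.136). There it paired standard oxygen libraries of codes Y and Z with chronic libraries of codes Z and Y. In chronic against acute hypoxia it was the same fit as the code block. The remaining settings (pseudocount 0.1 or 5, no filter or a mean of at least 5 TPM, no trend, both scalings alone) gave 0, 1 and 0.

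Over all genes the counts of changed genes were 3, 298 and 77 in the same order. They became 5, 166 and 25 without the trend, 25, 770 and 417 with all 9 samples in 1 fit, 78, 2039 and 1724 with the code block, 0, 1 and 1724 with the title block, 54, 1270 and 1084 with the code block and rescaling, 205, 2916 and 2464 with the code block and all 9 samples, 319, 2300 and 1788 without code Z and 327, 3828 and 2751 with the code block without code Z. Rescaling gave 21 and quantile normalization 23 in acute hypoxia, and no filter gave 120 and 7 in the chronic comparisons. Leaving out 1 library gave 0 to 33, 1 to 522 and 1 to 308. In acute hypoxia 33 came without standard oxygen replicate 2, and any other library gave 0 or 1. In chronic hypoxia against standard oxygen 522 came without that library and 476 without chronic hypoxia replicate 3, and any other gave 1 to 25. In chronic against acute hypoxia 308 came without chronic hypoxia replicate 3 and 90 without acute hypoxia replicate 3, and any other gave 1 to 4. The cause was not tested.

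Reversals concerned differences that did not pass in the fits without a block or with the code block alone, although Mpc1 in chronic hypoxia against standard oxygen passed with that block and rescaling (-0.43, adjusted p = 0.0435). Single libraries were left out only in the fits without block and rescaling. In acute hypoxia against standard oxygen Mpc2, at 0.04, turned to -0.015 with quantile normalization, and leaving out 1 library gave -0.34 to 0.035 for Mpc1, -0.22 to 0.36 for Mpc2, -0.24 to 0.11 for Slc2a6 and -0.015 to 0.27 for Slc16a1. In chronic hypoxia against standard oxygen Slc2a8 was at -0.052 and Slc16a1 at -0.023 with rescaling, with or without the code block, and at -0.073 and -0.076 with quantile normalization, while leaving out 1 library gave -0.024 to 0.33 for Slc2a8, -0.11 to 0.29 for Slc16a1 and -0.46 to 0.066 for Mpc1. In chronic against acute hypoxia Slc16a1 was at -0.12 and Slc16a3 at -0.066 with rescaling, with or without the code block, at -0.16 and -0.012 with quantile normalization, and without code Z Slc16a1 was at -0.095 and Mpc1 at 0.030, with or without the block. Leaving out 1 library there gave -0.23 to 0.15 for Slc16a1, -0.046 to 0.27 for Slc16a3 and -0.28 to 0.19 for Mpc1. The log2 ratio of Slc16a3 to Slc16a1 ranged from -0.035 to 0.22 in chronic against acute hypoxia, that of Mpc1 to Mpc2 from -0.70 to 0.26, -0.32 to 0.79 and -0.042 to 0.96 in the 3 comparisons, and the summed TPM of the SLC2 genes differed by -86.0 to 37.3 in chronic against acute hypoxia, and by 33.8 without code Z. The cause was not tested. Depth is unknown, and 3 libraries a group limit the precision.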
